A study of Mus musculus with 9 samples.

Results

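The genes described here encode the immunoproteasome and the machinery that loads peptides onto MHC class I molecules. They are 10 listed genes, Psmb8, Psmb9, Psmb10, Psme1, Psme2, Tap1, Tap2, Tapbp, B2m and Nlrc5, listed by name for their function. Of these, 9 were measured, through 15 probe sets annotated with 1 gene symbol, among 18194 genes measured in all. The remaining gene, Psme2, was represented only by a probe set also annotated to Psme2b, and no value is given for it. A gene with more than 1 probe set is represented by its brightest on average, and the others are given beside it.

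The study sorted thymic cells of a mouse reporter strain into 3 groups of 3 microarrays each. ZsG plus cells carried the green fluorescent reporter ZsG, which had been placed by recombineering at the ATG of TSLP (thymic stromal lymphopoietin, an epithelial cytokine) in a bacterial artificial chromosome. ZsG minus mTEC and ZsG minus cTEC cells, written ZsG-mTEC and ZsG-cTEC from here on, lacked the reporter signal, and the abbreviations are the usual ones for medullary and cortical epithelial cells of the thymus. The genetic background given for all groups was C57BL/6, and mice were 8 to 20 weeks old. The reporter is a transgene, so its signal need not follow the endogenous gene. The labels used here state neither the sex of the mice, nor the sort gates, nor whether animals were pooled, nor from which epithelial compartment ZsG plus cells were sorted. Groups follow the titles, although every sample also carries the cell type entry keratinocytes.

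Proteasomes cut cytosolic proteins into peptides. In cells exposed to interferon-gamma and in cells of the immune system, the catalytic subunits encoded by Psmb8, Psmb9 and Psmb10 replace the constitutive subunits encoded by Psmb5, Psmb6 and Psmb7 to form the immunoproteasome, and the PA28 activator encoded by Psme1 and Psme2 can cap it. The transporter made of Tap1 and Tap2 carries peptides into the endoplasmic reticulum, where tapasin, encoded by Tapbp, holds the empty class I molecule beside it, and B2m encodes the light chain of that molecule. Nlrc5 is a transactivator of class I genes. In the thymus, peptides displayed on class I by cortical epithelium select CD8 T cells, for which cortical cells use the thymoproteasome subunit encoded by Psmb11, whereas medullary epithelium presents self peptides that purge reactive cells.

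The genes lie on 4 chromosomes. Psmb9, Tap1, Psmb8 and Tap2 are direct neighbours in this order within the MHC on chromosome 17, and Tapbp lies elsewhere on the same chromosome, by the RefSeq annotation of GRCm38.p6. Psmb10 and Nlrc5 are on chromosome 8, Psme1 and Psme2 on chromosome 14 and B2m on chromosome 2. Psmb9 and Tap1 are transcribed away from each other from a shared stretch of DNA. That stretch is shown because it serves a pair of members at once. The B2m promoter is shown because B2m alone was higher without overlap in both ZsG plus comparisons on the deposited scaling. Psmb10 was lower without overlap in both on that scaling, and its promoter is not shown. The B2m sequence is chr2:122147437-122147686, the 250 bases before the gene's start on the plus strand. The Psmb9 and Tap1 sequence is chr17:34187331-34187555, the 225 bases between their starts, written on the plus strand in the direction of Tap1. Both are from RefSeq, build GRCm38.p6. Capitals mark letters matching any of the motifs named after the sequences.
B2m promoter: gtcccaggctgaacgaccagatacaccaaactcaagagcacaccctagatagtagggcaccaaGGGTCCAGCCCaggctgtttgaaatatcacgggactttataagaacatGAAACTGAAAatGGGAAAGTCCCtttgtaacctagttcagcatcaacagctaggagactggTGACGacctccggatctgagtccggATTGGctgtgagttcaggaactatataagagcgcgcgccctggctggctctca
Psmb9 and Tap1 shared promoter: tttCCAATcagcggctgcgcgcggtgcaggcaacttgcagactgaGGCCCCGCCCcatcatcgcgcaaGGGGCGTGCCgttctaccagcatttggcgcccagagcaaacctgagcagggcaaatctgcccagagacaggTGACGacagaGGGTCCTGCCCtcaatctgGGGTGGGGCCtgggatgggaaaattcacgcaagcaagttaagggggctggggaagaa

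Promoter sequences were matched for 8 of the 10 genes, and 6 motifs were searched on both strands of the 250 bases before each start. The Psmb10 promoter held none of the 6. The core of the interferon-stimulated response element, taken as GAAA and GAAA with any 2 bases between, lay in the B2m promoter, 139 to 130 bases before the start, and in none of the other 7 matched members. Among 32851 mouse promoters of the same length, 2.98% held it. A loose NF-kappaB-type motif, taken as GGG and CC with any 5 bases between, was in 5 of the 8 (B2m, Psmb9, Psme1, Psme2 and Tap1), against 45.8% of all promoters, and its matches on opposite strands overlap each other. The cyclic AMP response element core, TGACG, was in B2m, Psmb9, Psme2 and Tap1, against 17.8% of all promoters. The gamma-activated site type, TTCNNNGAA, was in Psmb8, against 7.02% of all promoters. The CCAAT box (CCAAT) was in 4 of 8, against 33.8%, and the GC box (GGGCGG) was in 5 of 8, against 32.7%, and some GC box matches overlap the NF-kappaB-type motif. The windows of Psmb9 and Tap1 share the 225 bases between their starts. All matches listed for these genes lie in that stretch and are counted for both. Psme2 was matched in overlapping windows before different starts and is counted as a gene. The percentages count promoters, so the counts of members are not separate promoters to set against them. Matches are descriptions of letters, not binding sites.

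Intensities are linear values that the authors scaled to the same trimmed mean on each array. Differences are in log2 units from limma fitted over all genes and all 9 arrays. Errors after ± are standard errors of that fit with n = 3 arrays per group, unless called SD, and the adjusted p is Benjamini-Hochberg over the 18194 genes with a threshold of 0.05. No label states that replicates were separate animals, so the spread that the p-values rest on is that between these samples and may be technical. Fewer cells of a type and less RNA per cell cannot be told apart in such bulk samples. The ZsG plus arrays varied most: their genes had a median SD of 1.30 on the log2 scale, with 0.63 for the ZsG-mTEC arrays and 0.61 for the ZsG-cTEC arrays. For the members the median SD was 0.53, 0.09 and 0.33 in ZsG plus, ZsG-mTEC and ZsG-cTEC. Every member value used, the lowest being 427, lay above all values of 6 control probe sets for the bacterial genes PheX and DapX, which ran from 3.77 to 341.

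No member passed the threshold in any of the comparisons. Between ZsG plus and ZsG-mTEC 0 of 9 members were called by limma, with 0.22% of all genes called, and 1 member, Tap2, had an unadjusted p under 0.05, against 13.4% of all genes. Between ZsG plus and ZsG-cTEC 0 of 9 were called, with 1.74% of all genes called, and 0 had an unadjusted p under 0.05, against 18.7% of all genes. Between ZsG-mTEC and ZsG-cTEC 0 of 9 were called, with 0.627% of all genes called, and 0 had an unadjusted p under 0.05, against 12.3% of all genes. The smallest absolute difference called in any gene was 3.46 for ZsG plus against ZsG-mTEC, 2.56 for ZsG plus against ZsG-cTEC and 2.94 for ZsG-mTEC against ZsG-cTEC. The 95% confidence intervals of the members extended from 1.06 to 2.29 to each side of the estimate, and a missed threshold does not show that levels were alike.

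Groups whose arrays did not overlap were counted next. Between ZsG plus and ZsG-mTEC the groups were separate for 4 of 9 members, 3 higher in ZsG plus (Psmb9, Tap2, B2m) and 1 lower (Psmb10), against 18.1% of all genes, 5.77% higher and 12.3% lower. Between ZsG plus and ZsG-cTEC they were separate for 2 of 9, 1 higher in ZsG plus (B2m) and 1 lower (Psmb10), against 23.3% of all genes, 9.9% higher and 13.4% lower. Between ZsG-mTEC and ZsG-cTEC they were separate for 4 of 9, 1 higher in ZsG-mTEC (Psmb10) and 3 lower (Psmb9, Tap1 and Tap2), against 28.5% of all genes, 16.6% higher and 11.8% lower. The median difference of the members was 0.25, −0.37 and −0.36 in these comparisons, in the same order, against −0.33, −0.14 and 0.09 over all genes. These counts and medians moved with the scaling. With quantile normalization 1 member was higher and 3 were lower between ZsG plus and ZsG-mTEC, 0 were higher and 4 lower between ZsG plus and ZsG-cTEC, and 1 was higher and 3 lower between ZsG-mTEC and ZsG-cTEC, with medians of −0.18, −0.64 and −0.47. With each array centred on the median of the genes tested the counts were 3 higher and 0 lower, 1 higher and 0 lower, and 0 higher and 4 lower, with medians of 0.87, 0.08 and −0.54. The median of the members thus changed sign with the scaling in both ZsG plus comparisons, and stayed below 0 under all 3 scalings between ZsG-mTEC and ZsG-cTEC.

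**Figure D1:**
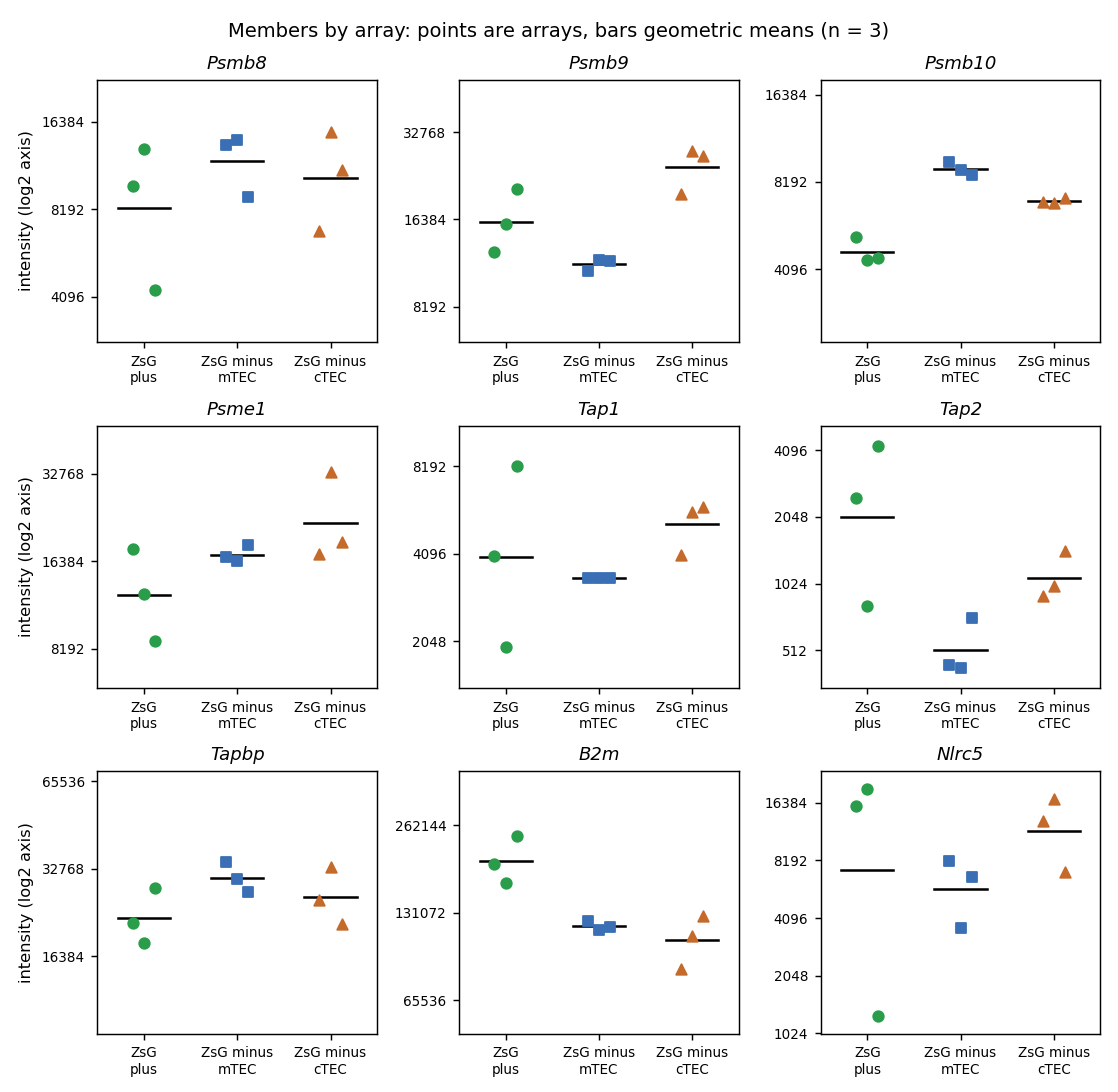
Intensity of each of the 9 measured genes on a log axis, with 1 point per array and ZsG plus, ZsG-mTEC and ZsG-cTEC from left to right, and bars at the geometric means. On this deposited scaling B2m lies higher in ZsG plus than in both other groups (it does not with quantile normalization), Psmb10 separates all 3 groups (it does not with centred arrays), and Nlrc5 has one ZsG plus array at 1252.

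The catalytic subunits of the immunoproteasome ranked the groups differently, and none passed the threshold. Psmb10, which encodes the subunit that replaces Psmb7, had intensities of 5276, 4428 and 4480 in ZsG plus, 9579, 9015 and 8677 in ZsG-mTEC, and 7011, 6949 and 7197 in ZsG-cTEC. The 3 groups did not overlap, with ZsG plus lowest and ZsG-mTEC highest, on the deposited scaling. With arrays centred on the median of the genes tested the groups overlapped in all 3 comparisons. The difference was −0.95 ± 0.47 between ZsG plus and ZsG-mTEC (95% interval −2.01 to 0.12, limma adjusted p = 0.424), −0.58 ± 0.47 between ZsG plus and ZsG-cTEC (limma adjusted p = 0.540) and 0.37 ± 0.47 between ZsG-mTEC and ZsG-cTEC (limma adjusted p = 0.878). The SD over the 3 arrays was 0.14, 0.07 and 0.03 in ZsG plus, ZsG-mTEC and ZsG-cTEC, while limma, which draws each gene's spread toward that of all genes, gave a standard error of 0.47. The differences were −1.08, −0.73 and 0.34 with quantile normalization and −0.32, −0.13 and 0.19 with centred arrays, in the same order.

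Psmb9, the subunit that replaces Psmb6 and is made from the gene beside Tap1, had intensities of 12679, 15854 and 20781 in ZsG plus, 10930, 11911 and 11746 in ZsG-mTEC, and 20094, 28121 and 27080 in ZsG-cTEC. On the deposited scaling all ZsG plus arrays lay above all ZsG-mTEC arrays, and all ZsG-mTEC arrays lay below all ZsG-cTEC arrays, while ZsG plus overlapped ZsG-cTEC. With quantile normalization ZsG plus overlapped ZsG-mTEC and lay below ZsG-cTEC on every array. The difference between ZsG-mTEC and ZsG-cTEC was −1.11 ± 0.50 (95% interval −2.23 to 0.02, limma adjusted p = 0.412), and it was 0.48 ± 0.50 between ZsG plus and ZsG-mTEC (limma adjusted p = 0.691). Between ZsG plus and ZsG-cTEC it was −0.62 ± 0.50 (limma adjusted p = 0.533). Psmb8, which replaces Psmb5, had intensities of 9881, 13249 and 4328 in ZsG plus, 13659, 14143 and 9012 in ZsG-mTEC, and 6895, 15122 and 11199 in ZsG-cTEC. All its groups overlapped, with differences of −0.54, −0.35 and 0.19, each ± 0.62 (limma adjusted p from 0.725 to 0.976), for ZsG plus against ZsG-mTEC, ZsG plus against ZsG-cTEC and ZsG-mTEC against ZsG-cTEC. A second Psmb8 probe set was dim, with a mean of 82.2, within the range of the control probe sets.

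The PA28 subunit Psme1 had intensities of 18101, 12687 and 8691 in ZsG plus, 16917, 16430 and 18589 in ZsG-mTEC, and 17411, 33218 and 19036 in ZsG-cTEC. All its groups overlapped on the deposited scaling. The differences were −0.46 between ZsG plus and ZsG-mTEC, −0.82 between ZsG plus and ZsG-cTEC and −0.36 between ZsG-mTEC and ZsG-cTEC, each ± 0.55 (limma adjusted p from 0.453 to 0.908). With quantile normalization every ZsG plus array lay below every array of both other groups. With centred arrays every ZsG-mTEC array lay below every ZsG-cTEC array. Psme3, which makes a separate PA28 ring that sits mostly in the nucleus, is not among the 10 genes. The brightest of its 3 probe sets had intensities of 20927, 29128 and 90394 in ZsG plus, 15642, 9961 and 15306 in ZsG-mTEC, and 10547, 8180 and 8114 in ZsG-cTEC. Every ZsG plus array lay above every other array, with differences of 1.51 ± 0.65 from ZsG-mTEC (limma adjusted p = 0.358) and 2.10 ± 0.65 from ZsG-cTEC (limma adjusted p = 0.135). With the mean of its probe sets these differences of Psme3 were 0.90 and 0.93.

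Of the peptide transporter genes, Tap2 had the greatest difference of any member. Its intensities were 2493, 808 and 4300 in ZsG plus, 442, 427 and 714 in ZsG-mTEC, and 901, 1004 and 1436 in ZsG-cTEC. Every ZsG plus array lay above every ZsG-mTEC array, while ZsG plus overlapped ZsG-cTEC because of replicate 2. Tap2 differed by 2.0 ± 0.69 between ZsG plus and ZsG-mTEC, a 4.01-fold difference (95% interval 1.36-fold to 11.8-fold, unadjusted p = 0.0173, limma adjusted p = 0.274). It differed by 0.91 ± 0.69 between ZsG plus and ZsG-cTEC (limma adjusted p = 0.510) and by −1.09 ± 0.69 between ZsG-mTEC and ZsG-cTEC (limma adjusted p = 0.620), where ZsG-mTEC was lower on all arrays. Its partner Tap1 had intensities of 4008, 1953 and 8197 in ZsG plus, 3382, 3368 and 3381 in ZsG-mTEC, and 4066, 5718 and 5947 in ZsG-cTEC. All ZsG-mTEC arrays lay below all ZsG-cTEC arrays, and the ZsG plus arrays spanned both groups. The differences of Tap1 were 0.25, −0.37 and −0.61, each ± 0.62 (limma adjusted p from 0.784 to 0.889), for ZsG plus against ZsG-mTEC, ZsG plus against ZsG-cTEC and ZsG-mTEC against ZsG-cTEC. Its other 3 probe sets were dim, with means of 25.1, 51.6 and 121, within the range of the control probe sets.

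The loading chaperone gene Tapbp had intensities of 21281, 18127 and 28025 in ZsG plus, 34571, 30219 and 27215 in ZsG-mTEC, and 25490, 33205 and 21056 in ZsG-cTEC. On the deposited scaling all its groups overlapped, with differences of −0.46, −0.24 and 0.22, each ± 0.50 (limma adjusted p from 0.707 to 0.951), for ZsG plus against ZsG-mTEC, ZsG plus against ZsG-cTEC and ZsG-mTEC against ZsG-cTEC. Its second probe set gave −0.53, 0.19 and 0.72 in the same order, and on it every ZsG-mTEC array lay above every array of both other groups. With quantile normalization the brighter Tapbp probe set had every ZsG plus array below every array of both other groups. Nlrc5, the transactivator, had intensities of 15744, 19446 and 1252 in ZsG plus, 8137, 3616 and 6694 in ZsG-mTEC, and 13131, 17222 and 7160 in ZsG-cTEC. Its SD was 2.20 in ZsG plus, the highest of the members, because replicate 3 lay far below the others. Its groups overlapped, with differences of 0.32, −0.69 and −1.01, each ± 1.02 (limma adjusted p from 0.750 to 0.916), for ZsG plus against ZsG-mTEC, ZsG plus against ZsG-cTEC and ZsG-mTEC against ZsG-cTEC. Without ZsG plus replicate 3 the difference of Nlrc5 between ZsG plus and ZsG-cTEC was 0.58.

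**Figure D2:**
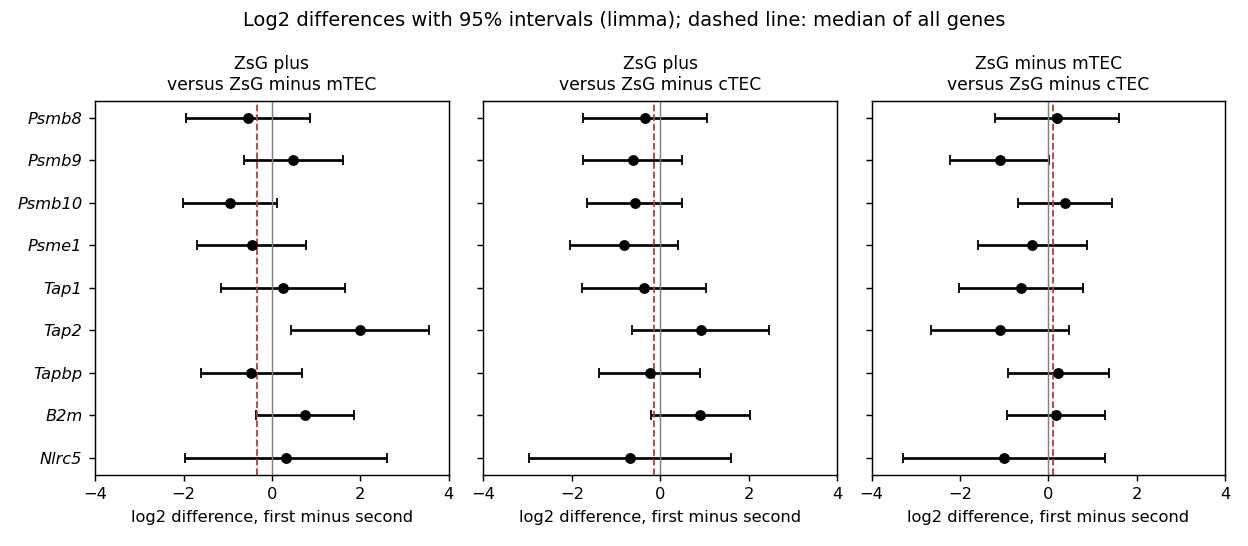
Difference in log2 intensity of each measured member for the 3 comparisons, with 95% confidence intervals of the limma fit as bars, a solid line at 0 and a dashed line at the median of all genes. All intervals include 0 except that of Tap2 for ZsG plus against ZsG-mTEC, from 0.44 to 3.56, which did not pass after adjustment over all genes.

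B2m had higher values in ZsG plus than in both other groups through each of its probe sets, without passing the threshold. Its intensities were 192643, 166444 and 240667 in ZsG plus, 122483, 114006 and 117370 in ZsG-mTEC, and 83891, 109135 and 127278 in ZsG-cTEC. Every ZsG plus array lay above every array of the other groups, which overlapped each other. The differences were 0.75 ± 0.49 from ZsG-mTEC (95% interval −0.37 to 1.86, limma adjusted p = 0.534) and 0.91 ± 0.49 from ZsG-cTEC (95% interval −0.20 to 2.02, limma adjusted p = 0.356), and 0.16 ± 0.49 between ZsG-mTEC and ZsG-cTEC (limma adjusted p = 0.970). Its second probe set gave 0.60, 0.97 and 0.37 in the same order. With a prior spread that follows intensity, B2m passed against ZsG-cTEC (limma adjusted p = 0.0212), and it was the one member called under any alternative.

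The size and the sign of the estimated B2m difference depended on how arrays were scaled. Arrays were scaled by the authors to a common trimmed mean, and the ZsG plus arrays had lower medians, 259, 316 and 230, against 366, 369 and 424 in ZsG-mTEC and 404, 382 and 376 in ZsG-cTEC, and a brighter upper end. The intensity exceeded by 1 probe set in 1000 was 110102, 101379 and 153991 in ZsG plus, against 80212, 74508 and 72644 in ZsG-mTEC and 62656, 76586 and 81339 in ZsG-cTEC. Quantile normalization gives all arrays 1 distribution, so that a value follows from its rank alone. B2m ranked among the brightest on every array, which leaves little room for a difference. It then read 17.135 in log2 units on both ZsG plus replicate 1 and ZsG-mTEC replicate 1. B2m differed by −0.18 ± 0.45 from ZsG-mTEC and −0.11 ± 0.45 from ZsG-cTEC, values near 0 for that error. After centring arrays on the median of the genes tested it differed by 1.37 ± 0.54 and 1.36 ± 0.54. The wider distribution of the ZsG plus arrays moved with this result, and its part in the result was not tested. The median of all genes was −0.07 and 0.11 under quantile normalization and 0.30 and 0.32 after centring, in the same order. The class I heavy chain genes H2-K1 and H2-D1 ranked the groups as B2m did in the ZsG plus comparisons. The listed heavy chains did not all do so. Of the 8 measured, 5 were above 0 and 3 below 0 in each of these comparisons on the deposited scaling. H2-K1 had 126404, 107628 and 128519 in ZsG plus, 68733, 73985 and 71890 in ZsG-mTEC, and 54224, 70805 and 70302 in ZsG-cTEC, which did not overlap ZsG plus. Its differences were 0.75 ± 0.48 and 0.90 ± 0.48 (limma adjusted p = 0.519 and 0.349) and those of H2-D1 were 0.62 ± 0.48 and 0.60 ± 0.48 (limma adjusted p = 0.589 and 0.539), from ZsG-mTEC and ZsG-cTEC. All 4 probe sets of H2-K1 were higher in ZsG plus in both comparisons, and for H2-D1 6 of 9 and 7 of 9 were. Probe sets of these genes can cross-hybridise with related heavy chains. Under quantile normalization the differences were 0.14 and 0.22 for H2-K1 and 0.19 and 0.07 for H2-D1.

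**Figure D3:**
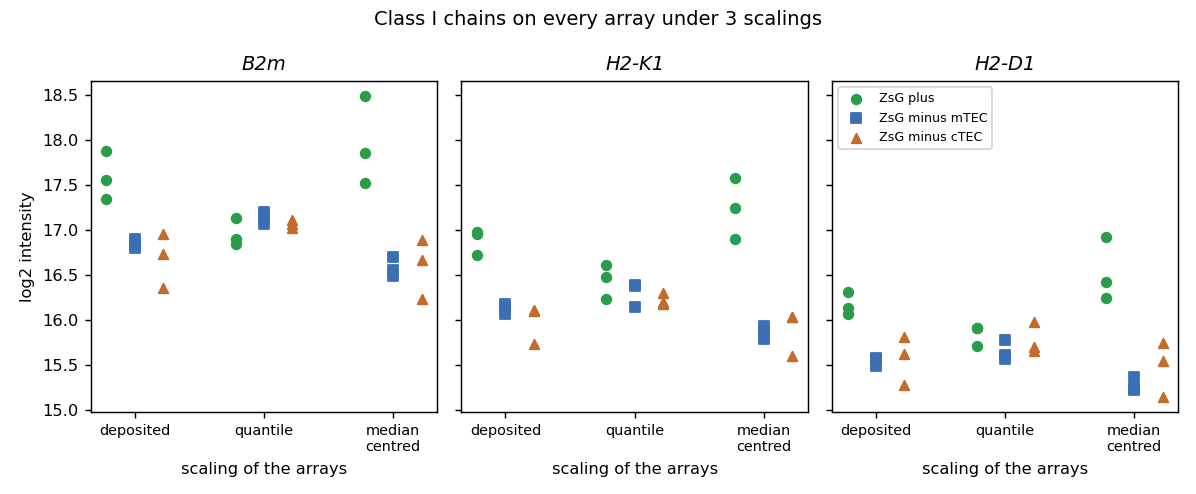
Log2 intensity of B2m, H2-K1 and H2-D1 on each array under the deposited scaling, quantile normalization and centring on the median of the genes tested, with ZsG plus, ZsG-mTEC and ZsG-cTEC from left to right. B2m in ZsG plus lies above the other groups under the deposited scaling and centring, and below or among them under quantile normalization.

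The ratio of each immunoproteasome subunit to the constitutive subunit it replaces was then taken within each array, which cancels a factor common to the array but not quantile normalization. Because probe sets differ in brightness, only differences of these log2 ratios between groups have a meaning. Psmb9 over Psmb6 was 1.18, 4.42 and 5.10 in ZsG plus, 0.68, 1.19 and 0.76 in ZsG-mTEC, and 2.32, 2.40 and 2.67 in ZsG-cTEC. The ZsG-mTEC arrays lay below the ZsG-cTEC arrays without overlap, and ZsG plus overlapped both. The difference between ZsG-mTEC and ZsG-cTEC was −1.58, with an exact two-sided permutation p of 0.1, the smallest that 3 arrays against 3 allow, and 0.72 after adjustment over 9 ratio differences. Between ZsG plus and ZsG-mTEC it was 2.68 (exact permutation p = 0.2) and between ZsG plus and ZsG-cTEC 1.10 (exact permutation p = 0.4). The ZsG plus arrays differed more in Psmb6 than in Psmb9, and Psmb6 had intensities of 5614, 743 and 608 in ZsG plus, 6843, 5207 and 6914 in ZsG-mTEC, and 4013, 5339 and 4264 in ZsG-cTEC. Psmb8 over Psmb5 averaged 3.28 ± 1.23 in ZsG plus, 2.94 ± 0.75 in ZsG-mTEC and 3.68 ± 1.12 in ZsG-cTEC (SD, n = 3 each). Psmb10 over Psmb7 averaged −0.70 ± 0.64 in ZsG plus, −0.69 ± 0.49 in ZsG-mTEC and −0.34 ± 0.20 in ZsG-cTEC (SD, n = 3 each). Neither of these ratios separated any pair of groups, with exact permutation p from 0.4 to 1.

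**Figure D4:**
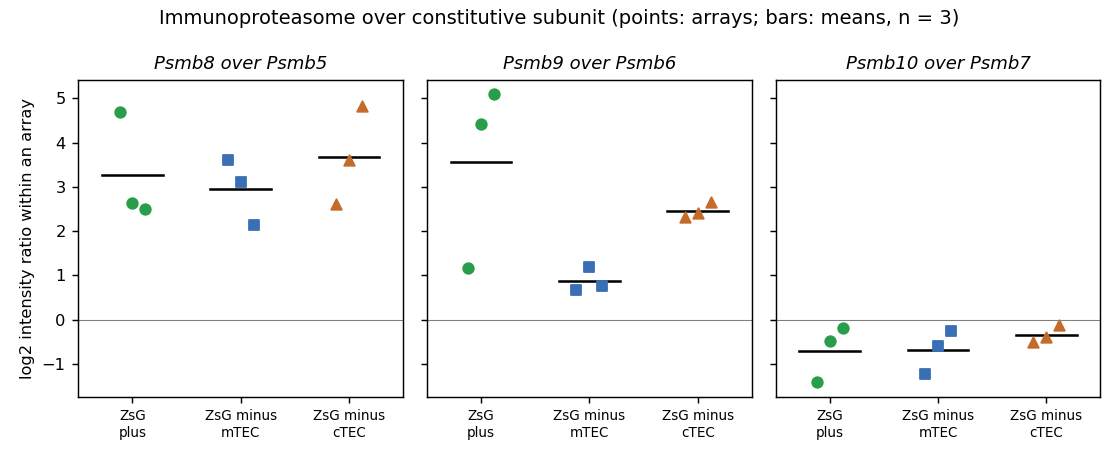
Log2 ratio of immunoproteasome to constitutive subunit within each array, for Psmb8 over Psmb5, Psmb9 over Psmb6 and Psmb10 over Psmb7, with 1 point per array, bars at the means, and ZsG plus, ZsG-mTEC and ZsG-cTEC from left to right. For Psmb9 over Psmb6 all ZsG-mTEC points lie below all ZsG-cTEC points, and the ZsG plus points spread from 1.18 to 5.10.

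Other proteasome and class I genes gave 1 call in limma, for Psmb11. Psmb11, the thymoproteasome subunit, had intensities of 183, 2855 and 245 in ZsG plus, 726, 2104 and 643 in ZsG-mTEC, and 18505, 12244 and 22292 in ZsG-cTEC. Its difference between ZsG plus and ZsG-cTEC was −5.09 ± 1.03 (limma adjusted p = 0.0452), and between ZsG-mTEC and ZsG-cTEC the difference was −4.11 ± 1.03 (limma adjusted p = 0.120). The Psmb11 call ended with array weights (limma adjusted p = 0.0947), with only the 6 arrays compared (limma adjusted p = 0.139), with arrays centred on the median (limma adjusted p = 0.0563) and without any 1 array other than ZsG plus replicate 2 (limma adjusted p from 0.0637 to 0.159). Of the 4 genes of constitutive and thymoproteasome catalytic subunits, 1 was called lower between ZsG plus and ZsG-cTEC and 0 in the other comparisons. Of the 14 other genes of the core particle and its assembly, 0 passed in any comparison and 13 were below 0 in ZsG plus relative to ZsG-mTEC, with a median of −0.82, where 11100 of all 18194 genes were below 0. With quantile normalization 14 of the 14 were below 0, with a median of −0.91, where the median of all genes was −0.07. After centring 8 of the 14 were below 0, with a median of −0.20, where the median of all genes was 0.30. Their median between ZsG plus and ZsG-cTEC was −0.83, or −0.80 with quantile normalization and −0.38 after centring. The median of all genes there was −0.14, 0.11 and 0.32 in the same order. The bright members Pomp, an assembly chaperone, and Psma6, a structural subunit, differed by −0.41 ± 0.52 and −0.38 ± 0.64 from ZsG-mTEC. Of 19 measured genes of the regulatory cap and other activators, of 8 class I heavy chains and of 9 other trimming and loading factors, 0 passed in any comparison. Calreticulin (Calr), a chaperone of class I folding, differed by 0.79 ± 0.49 between ZsG plus and ZsG-cTEC (limma adjusted p = 0.412) and by 0.96 ± 0.49 between ZsG-mTEC and ZsG-cTEC (limma adjusted p = 0.485). Between ZsG plus and ZsG-cTEC the 9 trimming and loading factors ran from −2.72 for Erap1 to 1.19, with 6 above 0 and 3 below. Erap1 was lower without overlap there (limma adjusted p = 0.0635) and in the other comparisons. Its mean in ZsG plus, 242, lay within the range of the control probe sets.

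Of 16 measured regulators of class I and interferon signalling, 0 passed in any comparison. Between ZsG plus and ZsG-cTEC they ran from −3.86 for Ifnar2 to 0.34, with 11 below 0 and 5 above. Ifnar2 was lower in ZsG plus without overlap there (limma adjusted p = 0.0889) and against ZsG-mTEC (−3.34, limma adjusted p = 0.207). Its mean in ZsG plus, 298, lay within the range of the control probe sets. Irf1, a transcription factor of class I and immunoproteasome genes, had intensities of 7269, 10080 and 11255 in ZsG plus, 9146, 10118 and 11988 in ZsG-mTEC, and 20695, 19190 and 23222 in ZsG-cTEC. Both other groups lay below ZsG-cTEC on every array. The differences were −1.16 ± 0.49 between ZsG plus and ZsG-cTEC (limma adjusted p = 0.248) and −1.02 ± 0.49 between ZsG-mTEC and ZsG-cTEC (limma adjusted p = 0.455). Rfx5, part of the factor that binds the class I promoter, had intensities of 2582, 13662 and 1254 in ZsG plus, 6747, 5271 and 4352 in ZsG-mTEC, and 2642, 4050 and 2624 in ZsG-cTEC. Irf8, another interferon factor, overlapped between all groups and differed by −0.50 ± 0.72 between ZsG plus and ZsG-cTEC (limma adjusted p = 0.749).

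Summed markers of thymocytes and of fibroblasts and endothelium were highest in ZsG-cTEC, while those of B cells were lowest there. On the deposited scaling Psmb9, Tap1, Tap2 and Irf1 lay higher in ZsG-cTEC than in ZsG-mTEC on every array, and Psmb10 lay lower. Of the 9 members 5 were higher in ZsG-cTEC than in ZsG-mTEC by the estimate and 4 were lower. The summed intensity of 11 measured of 12 thymocyte and T cell markers ran from 11549 to 12167 in ZsG plus, 8297 to 13653 in ZsG-mTEC and 58022 to 73511 in ZsG-cTEC. Ptprc, the pan-leukocyte gene in that list, ranged from 3577 to 4219 in ZsG plus, 2085 to 3163 in ZsG-mTEC and 12873 to 14677 in ZsG-cTEC. The summed fibroblast and endothelial markers, 10 of 10 measured, ranged from 5880 to 19306 in ZsG plus, 5045 to 6695 in ZsG-mTEC and 25515 to 41675 in ZsG-cTEC. The summed markers of dendritic cells and macrophages, 10 of 11 measured, ranged from 33426 to 104788 in ZsG plus, 38514 to 53413 in ZsG-mTEC and 17426 to 52383 in ZsG-cTEC. On the deposited scaling Psmb9, Tap2 and B2m lay above ZsG-mTEC on every ZsG plus array. Beside them, all 10 of these markers had a difference above 0 between ZsG plus and ZsG-mTEC, against 7094 of all 18194 genes. Their median was 0.79, and 3 were higher without overlap of the groups, against 5.77% of all genes. The summed ranges of these 2 groups overlapped, and Lyz2, the brightest of the markers, differed by 0.04 ± 0.71. With quantile normalization 9 of the 10 markers were above 0, against 8691 of all 18194 genes. On the deposited scaling limma called 0 of the 10 markers between ZsG plus and ZsG-mTEC, and 1, Flt3, had an unadjusted p under 0.05. Flt3, a cytokine receptor of dendritic cell precursors, read 3023, 2606 and 4765 in ZsG plus and 113, 391 and 150 in ZsG-mTEC, a difference of 4.16 ± 0.74 (limma adjusted p = 0.0747), and it read 2935, 8317 and 1945 in ZsG-cTEC. B cell markers, 4 of 5 measured, ranged from 3336 to 11829 in ZsG plus, 3656 to 5196 in ZsG-mTEC and 1267 to 2941 in ZsG-cTEC. Leukocytes also use the immunoproteasome and class I pathway, and the part of these cells in the results was not tested. No marker was at 0 on any array. In the thymocyte list 2 of 11 markers in ZsG plus, 1 of 11 in ZsG-mTEC and 1 of 11 in ZsG-cTEC stayed within the range of the control probe sets on all arrays. Of the 10 thymic epithelial markers none did so in any group. Epcam, an epithelial adhesion gene, read 40849 to 52536 in ZsG plus, 32427 to 33771 in ZsG-mTEC and 9084 to 13922 in ZsG-cTEC, and the summed list read 242355 to 353788, 199592 to 213511 and 163413 to 212171 in ZsG plus, ZsG-mTEC and ZsG-cTEC. Foxn1, the master regulator of thymic epithelium, read 1135 to 6377 in ZsG plus, 2544 to 3517 in ZsG-mTEC and 1254 to 1792 in ZsG-cTEC. Aire, the medullary regulator of self antigen expression, read 13180 to 23622 in ZsG plus, 17983 to 23992 in ZsG-mTEC and 1236 to 2571 in ZsG-cTEC. Prss16, a serine protease of cortical epithelium, read 505 to 2069 in ZsG plus, 2513 to 4051 in ZsG-mTEC and 41699 to 55909 in ZsG-cTEC.

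Pearson's r of a member with the mean of the others over the 9 arrays ran from −0.33 for Psmb10 to 0.52 for Psme1, as a description over arrays that share a scaling. By r with the mean of all 9 members, each first centred on its own mean, the most alike of 13914 other genes with a mean intensity of at least 200 were Spred1 (0.890), Emg1 (0.872), Paxbp1 (0.860), Nr4a2 (0.857) and Srsf5 (0.853). Spred1 encodes an inhibitor of Ras signalling, Emg1 a ribosome assembly factor, Nr4a2 an orphan nuclear receptor and Srsf5 a splicing factor. The members' centred mean was lowest on ZsG-mTEC replicate 2, at −0.26, and highest on ZsG-cTEC replicate 2, at 0.44.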

How the data were processed

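RNA was isolated on spin columns, treated with DNase, and 5 ng was amplified, per the labels' protocols. The authors deposited linear intensities per probe set and array; the software behind them is not given in the sources used here. By the values, each array's mean with 2% trimmed at each end was equal. Tests used log2 of the deposited intensities without an offset. Of 45101 probe sets, 34958 had 1 gene symbol, 932 several and 9211 none in the annotation table, and the brightest with 1 symbol stood for a gene. Comparisons used limma 3.58.1 under R 4.3.3 (lmFit, eBayes, 6 residual degrees of freedom, two-sided, Benjamini-Hochberg over 18194 genes), and subunit ratios with exact permutation tests. The steps were tested on simulated data. The rule for named genes took the members, fixed partners and regulators, and for each list up to 4 genes past the threshold in each direction and the 2 brightest others; most marker genes it took are given only within sums. Epcam, Foxn1, Erap1, Ifnar2 and the Flt3 value between ZsG plus and ZsG minus mTEC fall outside the rule and were chosen after their values were seen. The members and lists were chosen with earlier results of these data known. Alternatives changed the probe set, offset, filter, normalization, prior, weights and arrays used. The number of arrays limits the precision.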

Additional observations from a re-analysis of the deposited data

How the results depend on the processing

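Each of the 27 member differences was recomputed under 19 alternatives. In 14 of the differences the sign never changed, and in 13 it did at least once. Some alternatives keep the estimate and change only its error, so they could not turn a sign. These include the intensity trend in the prior variance, the replicate block and the fit to only the arrays compared. Leaving out an array of the group not compared also keeps the estimate. The count of 14 therefore rests on fewer than 19 trials of the sign per difference. Members past the threshold numbered 0 in all alternatives except that 1, B2m, passed between ZsG plus and ZsG-cTEC with an intensity trend in the prior variance. Tap2 between ZsG plus and ZsG-mTEC ran from 1.47 to 2.67, with the lowest limma adjusted p, 0.0691, without ZsG plus replicate 2. Over all genes, the 40, 317 and 114 called ran from 0 to 230, 0 to 735 and 0 to 1220 in the ZsG plus against ZsG-mTEC, ZsG plus against ZsG-cTEC and ZsG-mTEC against ZsG-cTEC comparisons.

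With quantile normalization B2m was −0.18 from ZsG-mTEC and −0.11 from ZsG-cTEC, Psmb8 over Psmb5 was −0.147 and Psmb10 over Psmb7 was 0.00835 between ZsG plus and ZsG-mTEC. With centred arrays, ZsG plus against ZsG-mTEC gave 0.0860 for Psmb8, 0.17 for Psme1 and 0.16 for Tapbp, ZsG plus against ZsG-cTEC gave 0.10 for Psmb8, 0.0825 for Tap1 and 0.21 for Tapbp, and B2m between ZsG-mTEC and ZsG-cTEC was −0.0101. With the mean of all probe sets Psmb8 was 0.99 between ZsG plus and ZsG-cTEC, and Psmb8 over Psmb5 was 0.929 there and 0.0762 between ZsG-mTEC and ZsG-cTEC; the second Psmb8 probe set is dim. Leaving out 1 array in turn, Nlrc5 ran from −0.39 to 1.59 against ZsG-mTEC and −1.40 to 0.58 against ZsG-cTEC in ZsG plus. The sign of Nlrc5 turned against ZsG-mTEC without ZsG plus replicate 1 or 2 or ZsG-mTEC replicate 2, and against ZsG-cTEC without ZsG plus replicate 3. Psmb8 ran from −0.69 to 0.12 between ZsG plus and ZsG-cTEC and −0.11 to 0.45 between ZsG-mTEC and ZsG-cTEC, turning without ZsG plus replicate 3 and ZsG-cTEC replicate 1. Tap1 ran from −0.27 to 0.76 and −0.89 to 0.15 in ZsG plus against ZsG-mTEC and ZsG-cTEC, turning without ZsG plus replicate 3 and replicate 2. Psmb8 over Psmb5 ran from −0.377 to 0.722 and −1.11 to 0.172 in these comparisons, and Psmb10 over Psmb7 ran from −0.280 to 0.347 between ZsG plus and ZsG-mTEC. The cause was not tested.

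With the replicate number as a replicate block 0, 16 and 0 genes passed over all genes in these comparisons, and 0 members. Same-numbered arrays deviated with correlations of −0.013 to 0.018 over 9 pairs. These values show no deviation shared by number. They cannot show whether same-numbered samples came from the same animals or the same sort.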
